A study of Mus musculus with 6 samples.

Results

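The replication-dependent histone genes are the multicopy genes that supply histone protein for newly made DNA. They were taken here as every gene of the count table whose mouse symbol marks it as a member of the Hist1 to Hist4 clusters in the older naming, or as H1f1 to H1f6, H2ac, H2bc, H3c or H4c in the newer one. This gave 70 genes of 54752 in the table, of which 67 are annotated as coding and 3 (Hist1h2aj, Hist1h2al and Hist3h2bb-ps) as pseudogenes. By class there were 20 H2A, 19 H2B, 13 H4, 12 H3 and 6 linker H1 genes. Chromosome 13 carried 56 of them, chromosome 3 carried 10, chromosome 11 carried 3 and chromosome 6 carried 1.

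RNA-seq had been done on NIH/3T3 cells, an established line of mouse embryonic fibroblasts, after 72 h of treatment. The vehicle group received PBS by its labels, while the study's text describes its control as complete medium. A second group received TGFB1 at 1 ng/ml, the cytokine that drives fibroblasts towards myofibroblasts, with DMSO as the vehicle of the drug. The third received TGFB1 at 1 ng/ml with BI6727 at 5 µM, a small-molecule inhibitor of the mitotic kinase PLK1. Each group held 2 libraries. The labels name no DMSO for the PBS group, though a figure legend of the study sets TGFB1 against DMSO. If the PBS group held none, an effect of TGFB1 and one of DMSO cannot be told apart where the DMSO group is set against vehicle. The sources do not settle this. Whether the BI6727 group also held DMSO is not stated, and BI6727 was given only together with TGFB1. All 3 groups are 1 cell line. The study's methods speak of biological replicates, in numbers of groups and replicates that differ from these libraries, and the labels do not say that the 2 libraries of a group came from separate cultures, so p-values measure only the spread between these libraries, which may be technical. The 5 epithelial markers Cdh1, Epcam, Krt8, Krt18 and Krt19 stayed under 10 counts in every library, while 9 of 10 fibroblast markers had at least 10 counts in all of them.

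Histone genes of this kind are switched on as cells enter S phase, through the coactivator NPAT, and their transcripts are cut after a short stem-loop in place of being given a poly(A) tail. The stem-loop binding protein SLBP and the U7 small nuclear ribonucleoprotein carry out that step, and the transcripts are degraded when DNA synthesis stops. Some of these genes also have a downstream polyadenylation signal, from which tailed transcripts arise in cells that have left the cycle. Core histones H2A, H2B, H3 and H4 form the nucleosome, while H1 binds the linker DNA between nucleosomes.

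The stem-loop is the sequence that defines the family, and it was searched for on the sense strand, as GG, 3 letters of any kind, TTTT, 1 of any kind, A, 3 of any kind and CC, in the longest annotated transcript of each gene (Gencode M21, GRCm38, which is the mm10 assembly of the count table). It was found in 43 of 70 genes and in 304 of 21884 other coding genes (1.39%). The form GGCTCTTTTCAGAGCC occurred in 25 of the 43, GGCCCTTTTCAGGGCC in 7, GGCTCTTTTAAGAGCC in 6, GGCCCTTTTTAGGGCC in 2, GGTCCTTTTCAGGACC in 2 and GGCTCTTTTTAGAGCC in 1. The 5 sites below belong to genes whose values are given further on. Capitals mark the 16 letters of the stem-loop, and 5 bases on each side are in lower case.
Hist1h1c: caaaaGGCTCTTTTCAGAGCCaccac
Hist1h1d: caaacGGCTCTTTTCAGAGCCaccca
Hist1h2bg: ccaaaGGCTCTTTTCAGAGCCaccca
Hist1h4h: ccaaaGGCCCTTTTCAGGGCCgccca
Hist1h4i: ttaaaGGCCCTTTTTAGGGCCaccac
The stem-loop letters lie at chr13:23739512-23739527 on the plus strand for Hist1h1c, chr13:23555787-23555802 (plus) for Hist1h1d, chr13:23571843-23571858 (plus) for Hist1h2bg, chr13:23531458-23531473 (plus) for Hist1h4h and chr13:22040966-22040981 (minus) for Hist1h4i. The 3 linker or H2B genes among them share the same 16 letters, and both H4 genes have a stem that starts with GGCCC.

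Hist1h2bc, an H2B gene that recurs below, held no such stem-loop in its annotated transcript. That transcript has 2 exons, of 423 bases at chr13:23684199-23684621 and of 733 bases at chr13:23692176-23692908, on the plus strand. The shorter core, which is CTTTT, 1 letter of any kind and AG, was present in its second exon, between flanks that differ from the stem. This core alone also stood in 5261 of 21884 other coding genes (24.0%), so its presence does not mark a histone gene. Hist2h2be, another H2B gene with no stem-loop in its annotated transcript, held such a core too. The 8 letters of the core are in capitals.
Hist1h2bc: aaaagaatgCTTTTAAGtgtttgtca
Hist2h2be: cttggagttCTTTTTAGactaggata
A missing motif says only that the letters are not in the annotated transcript, which for Hist1h2bc splices away from the end of its coding exon.

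The counts on these genes were few. The 6 libraries held between 18362378 and 24452153 counts, of which 970 and 821 fell on the 70 genes in the vehicle libraries, 1726 and 2916 in the DMSO libraries (TGFB1 with DMSO, replicates 1 and 2) and 1853 and 2397 in the BI6727 libraries (TGFB1 with BI6727). That is 0.00371% to 0.0131% of a library. The median gene of the family had 3 to 5 counts. In all 6 libraries together 8 genes had 0 counts, where 3 counts, the most that a count of 0 allows, would be 0.123 to 0.163 CPM, and 35 genes stayed under 10 counts in every library. At least 100 counts in any library were reached by 3 genes, Hist1h1c, Hist1h2bc and Hist1h4i. Intervals and limits of this kind cover counting error only.

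Part of the sequence of most of these genes cannot place a read. Over windows of 50 bases, the read length, the median gene shared 54.5% of its windows exactly with transcripts of other genes, and 57 of 70 shared at least 20%. In 5 genes all windows were shared (100%), and those 5 are among the 8 genes with 0 counts. The same 5 also overlap exons of other genes over 100% of their bases. The part of shared sequence, of overlap and of expression in their 0 counts was not tested. How the authors' counting treated reads with several positions is not given in the sources used here, nor is strand, and 26 members overlap exons of another gene. Levels of single members are therefore uncertain to that extent. Of the other 3 genes at 0, Hist1h2aa and Hist1h2ba are the testis H2A and H2B genes, and Hist2h2ab overlaps other exons over 68.2% of its bases.

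The sample labels name removal of ribosomal RNA, which keeps transcripts without a poly(A) tail, and also speak of purified mRNA. Other RNAs of that kind, a set chosen after values were seen, had few counts where they were short and more where they were long. Rn7sk, the RNA of the 7SK ribonucleoprotein, had 20 to 82 counts per library, Rnu1a1 had 7 to 15 and Terc had 2 to 13, while Rmrp and Rpph1 had 0 in all 6. Malat1, a long nuclear RNA whose mature end is cut and not tailed, had 2407 and 2169 counts in vehicle, 1802 and 1027 with DMSO, and 1731 and 2237 with BI6727. Neat1, of which the long form is untailed and the short form tailed, had 592 to 1581. H3f3b, which encodes the replication-independent histone H3.3 from a polyadenylated transcript, had 14855 to 19906. Per kilobase of gene, the mean normalised level of H3f3b was 13.4 times that of Hist1h1c, the member of highest level. The part of RNA size or tail in the levels below was not tested.

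Summed over all 70 genes, the level was higher in each of the 4 libraries with TGFB1 than in both vehicle libraries. Normalised CPM (counts scaled by edgeR's TMM to a common library total) summed to 50.4 and 37.4 in vehicle, 83.3 and 140.4 with TGFB1 and DMSO, and 103.1 and 99.2 with TGFB1 and BI6727. DMSO replicate 2 stood highest and apart from its partner, so that the BI6727 values fell between those of the DMSO libraries. The log2 ratio of group means was 1.35 for DMSO over vehicle, 1.21 for BI6727 over vehicle and -0.15 for BI6727 over DMSO. Without Hist1h2bc, a sum added after its values were seen, the ratios were 1.12, 0.84 and -0.27. Without both Hist1h2bc and Hist1h1c, also added later, they were 0.89, 1.07 and 0.18, so the sign for BI6727 over DMSO turned. In bulk RNA, a change in the share of cells that express these genes and one in the RNA per cell cannot be told apart.

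DMSO replicate 2 also differs from the other libraries across the transcriptome. The SD of the log2 difference between the partners over the genes past 10 CPM was 0.366 in the DMSO group, against 0.155 in vehicle and 0.141 with BI6727. The members are short, with a median length of 532 bases. The trend of level with gene length over all genes, read at the lengths of the family, ran 0.31 above the mean of the libraries on the log2 scale in DMSO replicate 2, against -0.14 to 0.06 in the other 5. Its part in the sums was not tested.

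**Figure D1:**
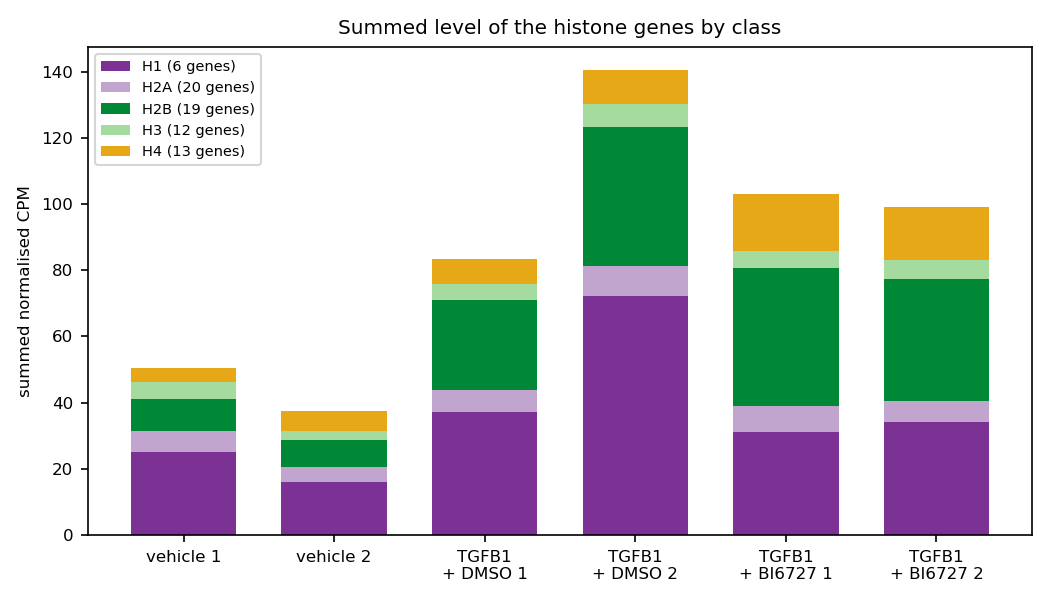
Summed normalised CPM of the 70 histone genes in each library (bars), split by histone class (colours), with 1 bar per library and no error bars. Vehicle bars reach 50.4 and 37.4, and all 4 bars with TGFB1 reach 83.3 or more. The H1 share (purple) is tallest in DMSO replicate 2 and the H4 share (yellow) is tallest in the BI6727 libraries.

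Most of the sum came from the H1 and H2B classes. The H1 genes summed to 24.9 and 16.02 normalised CPM in vehicle, 37.0 and 72.1 with DMSO, and 31.1 and 34.2 with BI6727. The H2B genes summed to 9.76 and 8.19, then 27.4 and 42.0, then 41.9 and 36.8. H4 genes stood at 4.10 and 5.87 in vehicle and 7.39 and 10.2 with DMSO, and were highest with BI6727, at 17.4 and 16.2. H2A sums of 6.44 and 4.41, 6.71 and 9.15, and 7.73 and 6.42 moved less, and H3 sums of 5.14 and 2.87, 4.83 and 6.93, and 4.90 and 5.59 overlapped between all groups. A pair of genes, Hist1h1c and Hist1h2bc, held 50.1% to 69.1% of the counts of the family in each library.

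The filter stated in the study's methods, 10 CPM or more in over 3 samples, kept 9518 genes and of the family only these 2. Hist1h2bc passed it through the libraries with TGFB1 alone. The study's results describe an expression profile of more genes than this filter kept here. A wider filter (edgeR's filterByExpr) left 14604 genes and 26 of the family, and both filters were fitted over all genes with edgeR's quasi-likelihood test at a Benjamini-Hochberg adjusted p below 0.01 and a fold above 2. Of the 26, 9 had at least 10 counts in both vehicle libraries, 20 in both DMSO libraries and 19 in both BI6727 libraries. A count over the 26 thus favours genes that are high with TGFB1 and is given as description only. The 44 genes left out had at most 17 counts in any library and summed to 104 and 129 counts in vehicle, 84 and 131 with DMSO, and 86 and 129 with BI6727, which overlap.

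**Figure D2:**
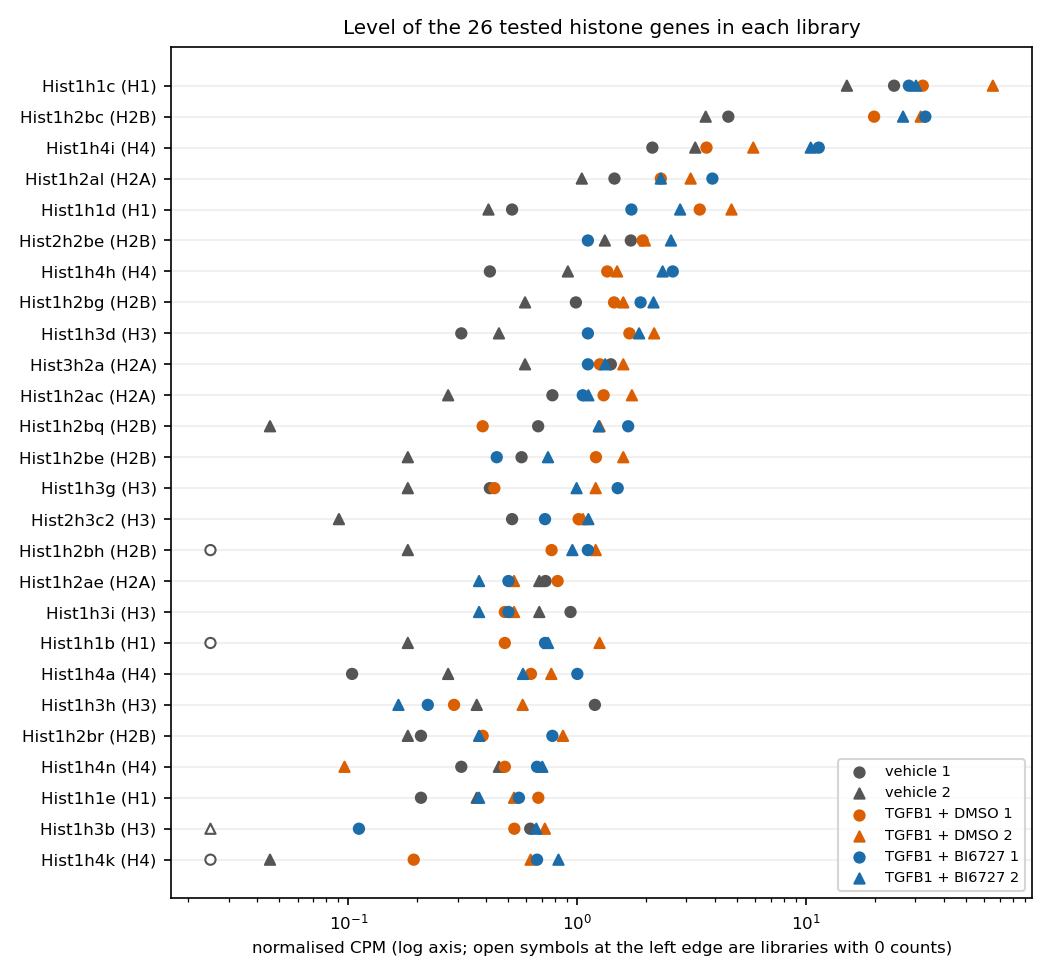
Normalised CPM of the 26 tested histone genes (rows, class in brackets) in each of the 6 libraries (symbols) on a log axis. Hist1h1c and Hist1h2bc lie furthest right. For most rows the grey vehicle symbols lie to the left. Hist1h3i has both of them to the right of all others, and Hist1h3h has only that of vehicle replicate 1 there. Hist1h4i has both blue BI6727 symbols to the right of all others.

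The first comparison asks what TGFB1 with DMSO changed in these fibroblasts. Past 10 CPM, 1 of the 2 members was called higher than vehicle and 0 lower, where 2.56% of all 9518 genes were called higher and 2.53% lower. With the wider filter 2 of 26 were called higher (Hist1h2bc and Hist1h1d) and 0 lower, against 2.75% of the 14604 genes called higher and 3.23% called lower. By size alone, 22 of the 26 had a positive log2 fold change and 4 a negative one, with a median of 1.28 against -0.01 for all genes. An unadjusted p below 0.05 was reached by 15 of 26, all higher, where 35.2% of all genes reached it in either direction. A count in any library, which those with TGFB1 alone can supply, was held by 62 members. Both DMSO libraries lay above both vehicle libraries in 24 of them (38.7%) and below in 3 (4.84%). The shares were 20.9% and 23% of all genes with counts. Members on both sides rest on few counts. Hist1h4m had 0 and 0 in vehicle and 2 and 2 with DMSO, and Hist1h3e had 8 and 14, then 0 and 2. Such counts over the 62 members are description only, here and in the comparisons below. Acta2, the smooth muscle actin of myofibroblasts, was at 92.1 and 100.2 normalised CPM in vehicle and at 476.3 and 473.2 with DMSO, as a check of the TGFB1 label.

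Hist1h2bc rose at both filters. Its counts were 88 and 80 in vehicle, 410 and 657 with DMSO and 596 and 640 with BI6727, or 4.57 and 3.64, 19.8 and 31.6, and 33.2 and 26.5 normalised CPM. Each library with TGFB1 was thus above both vehicle libraries, and the DMSO and BI6727 libraries overlapped. With the wider filter the log2 fold change was 2.66 (SE 0.26, edgeR adjusted p = 0.00026) for DMSO over vehicle. For BI6727 over vehicle it was 2.88 (SE 0.26, edgeR adjusted p = 0.00016). The gene met the 10 CPM filter through the libraries with TGFB1 alone. There the log2 fold change was 2.65 (SE 0.28, edgeR adjusted p = 0.00082) for DMSO over vehicle and 2.86 (SE 0.28, adjusted p = 0.00054) for BI6727 over vehicle. With either vehicle library left out it was 2.49 or 2.81 and 2.70 or 3.03, and neither difference was then called at that filter (adjusted p = 0.015 to 0.023). Of the windows of this gene 86.9% were shared with other genes in the coding exon and 2.05% in the second exon, and which exon the counts fell on is not shown by the table.

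Hist1h1d, the gene of linker histone H1.3, rose with the wider filter. It spans 23553262 to 23560686 on chromosome 13, and its counts were 10 and 9 in vehicle, 71 and 98 with DMSO and 31 and 68 with BI6727. The vehicle libraries were lowest and the BI6727 libraries lay between them and DMSO. With under 10 counts in vehicle replicate 2, the gene met the wider filter through the libraries with TGFB1. That limits both of its comparisons with vehicle. Its log2 fold change for DMSO over vehicle was 3.13 (SE 0.42, edgeR adjusted p = 0.0014), and without vehicle replicate 1 or 2 it was 3.30 or 2.97 and no longer called (adjusted p = 0.024 and 0.028).

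Hist1h1c, the gene of linker histone H1.2, had the highest level of the family, and its DMSO libraries differed more in normalised CPM than those of any other member. Its counts were 466 and 331 in vehicle, 669 and 1358 with DMSO and 505 and 729 with BI6727, which are 24.2 and 15.1, 32.3 and 65.4, and 28.1 and 30.2 normalised CPM. The vehicle libraries were lowest, and DMSO replicate 2 lay far above its partner, which was close to the BI6727 libraries. The log2 fold change of 1.32 (SE 0.35, edgeR adjusted p = 0.032) for DMSO over vehicle missed the threshold. It was 0.74 without DMSO replicate 2 and 1.74 without DMSO replicate 1, and it was called in 4 of 15 alternatives.

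Among the other linker genes, Hist1h1b (H1.5) had 0 and 4 counts in vehicle, 10 and 26 with DMSO and 13 and 18 with BI6727, and Hist1h1e (H1.4) had 4 and 8, 14 and 11, and 10 and 9. Neither passed the adjusted threshold in any of the 3 comparisons. All 4 tested H1 genes had positive values for DMSO over vehicle, from 1.05 to 3.13. The filter favours genes that are high with TGFB1, so this shared direction is description only.

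The core histone genes were spread more widely, and the members with few counts given here beyond the rule for named genes were chosen after their values were seen. Among H3 genes Hist1h3d had 6 and 10 counts in vehicle, 35 and 45 with DMSO and 20 and 45 with BI6727, with a log2 fold change of 2.31 (SE 0.49, edgeR adjusted p = 0.012) for DMSO over vehicle, just outside the threshold. Hist1h3g had 8 and 4, 9 and 25, and 27 and 24. In the other direction Hist1h3i had 18 and 15 counts in vehicle, 10 and 11 with DMSO and 9 and 9 with BI6727, and Hist1h3h had 23 and 8, 6 and 12, and 4 and 4. None of these H3 genes was called. Hist1h3d had under 10 counts in vehicle replicate 1, so it too met the wider filter through the libraries with TGFB1. Among H2A genes the annotated pseudogene Hist1h2al had 28 and 23, 48 and 65, and 70 and 56 counts, and Hist1h2ae had 14 and 15, 17 and 11, and 9 and 9. All 7 tested H2B genes had positive values over vehicle, from 0.38 for Hist2h2be to 3.29 for Hist1h2bh. The filter favours genes that are high with TGFB1, and the H2B genes it left out went both ways. Hist1h2bk had a mean of 0.338 normalised CPM in vehicle and 0.193 with DMSO, and Hist1h2bb had 0.075 and 0.217. Hist1h2bh had 0 and 4 counts in vehicle, 16 and 25 with DMSO and 20 and 23 with BI6727, so that its fitted fold depends on the prior count. Hist1h2bg had 19 and 13, 30 and 33, and 34 and 52 counts, and Hist2h2be had 33 and 29, 40 and 41, and 20 and 62, with the BI6727 libraries on both sides of the other groups.

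The next comparison asks what stood above or below vehicle once BI6727 was present with TGFB1. Past 10 CPM 1 member (Hist1h2bc) was called higher and 0 lower, where 2.34% of all genes were called higher and 2.96% lower. With the wider filter 3 of 26 were called higher, Hist1h2bc, Hist1h4i and Hist1h1d, and 0 lower, against 2.51% and 3.71% of all genes. Positive values were found for 23 of 26, with a median of 1.45 against 0.0049 for all genes, and 14 higher and 1 lower reached an unadjusted p below 0.05, which 35.4% of all genes did. Over the 62 members with counts the groups did not overlap in 26 that were higher (41.9%) and 11 that were lower (17.7%), against 24.8% and 25.6% of all genes with counts. This comparison and the one before it share the vehicle libraries.

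Hist1h4i, an H4 gene at 22040636 to 22041362 on the minus strand of chromosome 13, rose against vehicle. Its counts were 41 and 72 in vehicle, 76 and 122 with DMSO, and 204 and 253 with BI6727. Normalised CPM were 2.13 and 3.28, 3.67 and 5.87, and 11.4 and 10.5, so the 3 groups did not overlap and lay in that order. The log2 fold change for BI6727 over vehicle was 2.02 (SE 0.29, edgeR adjusted p = 0.0020), and that for DMSO over vehicle was 0.82 (SE 0.30, adjusted p = 0.091). Without any 1 of the vehicle or BI6727 libraries it was 1.75 to 2.37 and not called (adjusted p = 0.015 to 0.036). Hist1h1d had a log2 fold change of 2.31 (SE 0.43, adjusted p = 0.0068) here, lost without any 1 of these same 4 libraries (1.91 to 2.61, adjusted p = 0.015 to 0.073) and, narrowly, with the replicate number as a block (2.28, adjusted p = 0.010).

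The other tested H4 genes had lower counts, under 10 in vehicle replicate 1. They thus met the wider filter through the libraries with TGFB1. Hist1h4h had 8 and 20 counts in vehicle, 28 and 31 with DMSO and 47 and 57 with BI6727, the same order of groups as Hist1h4i, and its log2 fold change for BI6727 over vehicle was 1.89 (SE 0.44, edgeR adjusted p = 0.017). Hist1h4k had 0 and 1, 4 and 13, and 12 and 20, and Hist1h4a had 2 and 6, 13 and 16, and 18 and 14. Hist1h4n had 6 and 10, 10 and 2, and 12 and 17 counts, with DMSO replicate 2 lowest.

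The last comparison sets BI6727 against DMSO, both with TGFB1. Since the labels name DMSO for the second group only, an effect of BI6727 and one of DMSO cannot be told apart unless both held it. None of the family was called by edgeR at either filter, and 0% of all genes were called in either direction. DESeq2 called 0 members too, of 11 genes called past 10 CPM and 15 with the wider filter. An unadjusted p below 0.05 was reached by 1 member that was higher (Hist1h4i) and 2 that were lower (Hist1h1c and Hist1h1d) of 26, where 7.13% of all genes reached it. Positive values were found for 11 and negative ones for 15, with a median of -0.15 against -0.0013 for all genes. Over the 62 members with counts 7 did not overlap and were higher with BI6727 (11.3%) and 13 were lower (21%), against 13.5% and 14.4% of all genes with counts.

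The classes pointed different ways in this comparison, as a description of values that were not called. All 5 tested H4 genes had positive log2 fold changes, from 0.16 for Hist1h4a to 1.24 for Hist1h4n, and the H4 sum had a log2 ratio of 0.94. The filter can favour genes that are high with BI6727. Hist1h4n had at least 10 counts in both libraries of that group alone. H4 genes left out by the filter went both ways. Hist1h4d had 8 and 4 counts with DMSO and 2 and 0 with BI6727, and Hist1h4c had 5 and 4, and 4 and 10. All 4 tested H1 genes had negative log2 fold changes, from -0.23 for Hist1h1b to -0.82 for Hist1h1d, with a log2 ratio of -0.74 for the H1 sum. That direction leans on DMSO replicate 2. Without it 3 of the 4 were negative, Hist1h1b turned to 0.59 and the H1 sum had a log2 ratio of -0.18, while without DMSO replicate 1 all 4 were negative and the ratio was -1.14. The 5 H4 genes stayed positive without either DMSO library, with ratios of the H4 sum of 0.73 and 1.19 and the value of Hist1h4a down to 0.029. Hist1h4i had the smallest p of the family, with a log2 fold change of 1.20 (SE 0.28, edgeR adjusted p = 0.53). Without DMSO replicate 2 it was 1.56 and called (adjusted p = 0.0049), and without DMSO replicate 1 it was 0.91 (adjusted p = 0.023). Hist1h1c went the other way, at -0.74 (SE 0.34, adjusted p = 0.74), with -1.16 and called without DMSO replicate 1 (adjusted p = 5e-05) and -0.16 without DMSO replicate 2 (adjusted p = 0.66). Which DMSO library is kept thus sets both calls. Hist1h2bc had 0.21 (adjusted p = 0.89).

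**Figure D3:**
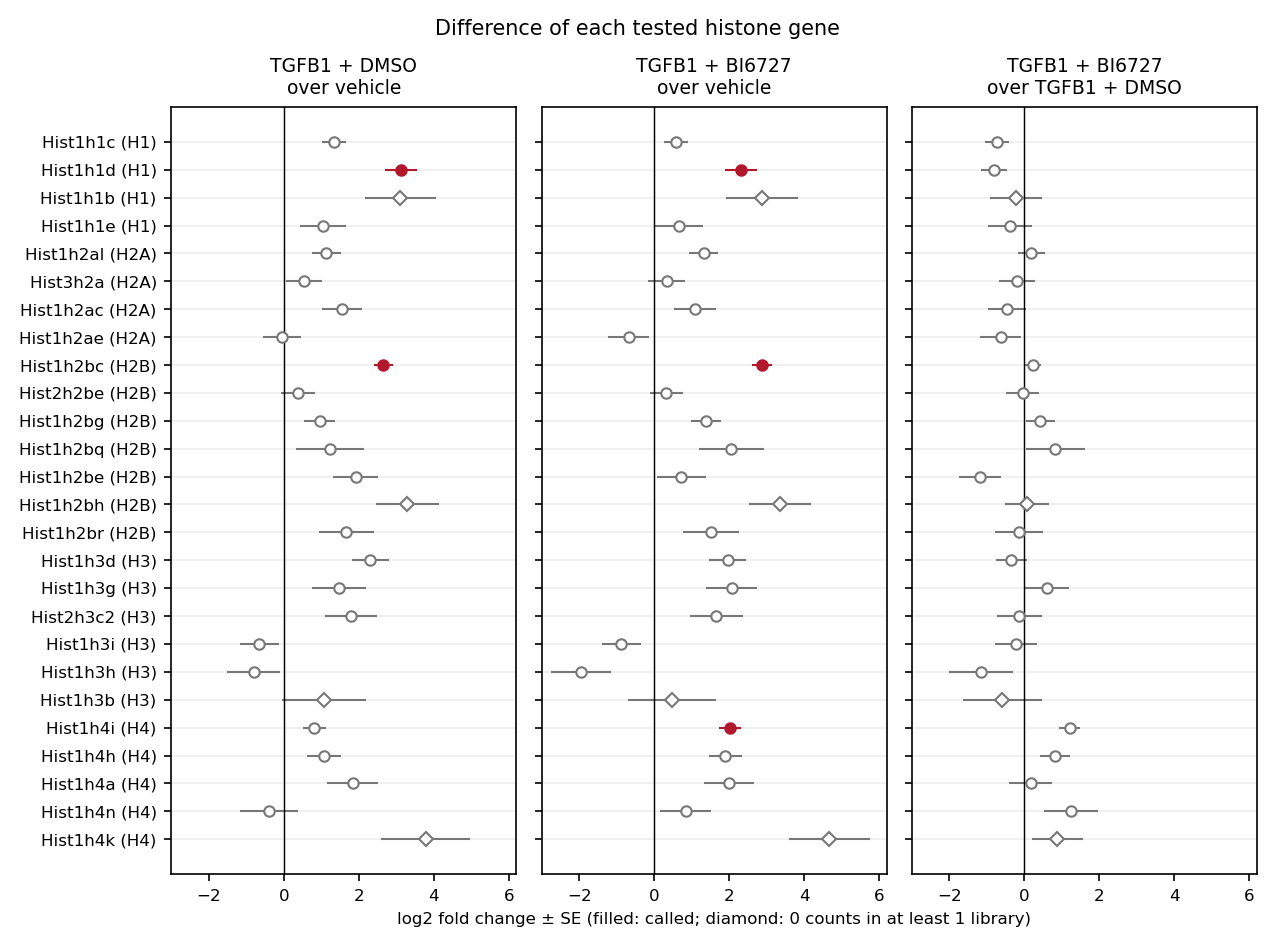
Log2 fold change of the 26 tested histone genes (rows, grouped by class) from the filterByExpr fit in the 3 comparisons (panels), with bars of 1 SE. Filled red points are called and diamonds mark genes with 0 counts in at least 1 library. Called points are Hist1h1d and Hist1h2bc in both panels against vehicle and Hist1h4i in the middle panel, and none in the right panel, where all 5 H4 rows lie right of 0 and all 4 H1 rows lie left of it.

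The annotated 3′ ends fall into 3 kinds. In 21 genes the transcript ends within 100 bases of the stem-loop, where the histone-specific cut is made, in 22 it runs on past, and in 27 no stem-loop was found in it. Of the 21 that end near the stem-loop 3 were tested, 15 had under 10 counts in every library, and the highest mean level was 1.52 normalised CPM (Hist1h4h, with 46 bases after the stem-loop). Of the 22 that run on, 12 were tested and 6 stayed under 10 counts, and the level reached 32.5 normalised CPM in Hist1h1c, with 840 bases after its stem-loop. Hist1h4i had 330 bases and Hist1h1d 4884. Of the 27 without the motif 11 were tested, and Hist1h2bc led at 19.9. The members called in any comparison were Hist1h1d and Hist1h4i, which run on past the stem-loop, and Hist1h2bc, which has none in its annotated transcript. Only 3 of the 21 genes that end near the stem-loop could have been called at all. After the stem-loop, the letters AATAAA of a polyadenylation signal stood 7 times in Hist1h1d and 0 times in Hist1h4i.

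The kinds differ in length as well as in ending, which bears on a count of reads. Median gene length was 482 bases for the genes that end near the stem-loop and 1255 for those that run on, and per kilobase their median levels were 0.232 and 0.292 normalised CPM, with 0.436 for those without the motif. Their median shares of windows found in other genes too were 65.8%, 23.3% and 71.5%. The part of length, of shared sequence and of the ending in the counts was not tested. Summed levels of the genes that end near the stem-loop were 3.58 and 3.05 normalised CPM in vehicle, 3.72 and 4.72 with DMSO and 4.95 and 5.71 with BI6727. Those that run on summed to 33.9 and 24.1, 50.7 and 89.5, and 51.5 and 55.0, and those without the motif to 12.9 and 10.2, 29.0 and 46.2, and 46.7 and 38.5.

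**Figure D4:**
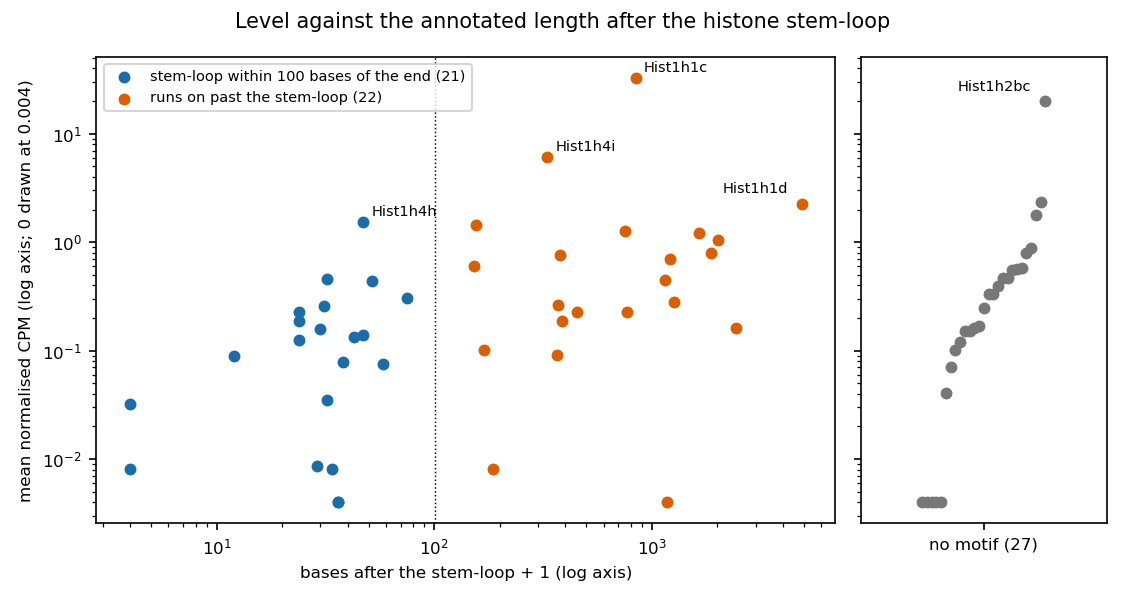
Mean normalised CPM over the 6 libraries of each of the 70 histone genes (points, log axis) against the bases after the stem-loop in its longest annotated transcript (log axis), with genes without the motif in the right panel. The dotted line is at 100 bases. The points of high level, Hist1h1c and Hist1h4i, lie right of the line, and all points left of it are at or below 1.52.

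Promoters were compared through short motifs, since those of histone genes carry class-specific elements. RefSeq promoters (GRCm38.p6, from 250 bases before to 50 after the start) were given for 61 members and 27025 genes, and motifs were counted on both strands. CCAAT stood in 52 of 61 (85.2%) against 37.9% of all promoters, in all H1, H2A, H2B and H3 promoters and in 3 of 12 of H4. TATAAA stood in 35 (57.4% against 14.2%). The octamer ATTTGCAT was in 7 of 17 H2A and 6 of 16 H2B promoters and in none of the H1, H3 and H4 ones, against 1.75% of all. AAACACA stood in 5 of 6 H1 promoters (83.3% against 7.14%). H2A and H2B genes often share 1 promoter region, so these are not independent counts.

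The promoters of 2 of the 3 called members are shown because they differ in these elements. Capitals mark the CCAAT motif, the TATAAA motif and the AAACACA motif on either strand. That of Hist1h1d is at chr13:23554782-23555081 on the plus strand and that of Hist1h4i at chr13:22041313-22041612 on the minus strand, while Hist1h2bc (H2bc4) is named only.
Hist1h1d: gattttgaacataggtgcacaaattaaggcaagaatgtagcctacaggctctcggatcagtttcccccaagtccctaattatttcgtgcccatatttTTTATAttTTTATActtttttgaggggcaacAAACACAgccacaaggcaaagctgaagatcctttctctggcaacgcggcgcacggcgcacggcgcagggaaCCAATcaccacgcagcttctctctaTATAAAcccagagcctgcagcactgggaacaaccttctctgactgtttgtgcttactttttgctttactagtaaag
Hist1h4i: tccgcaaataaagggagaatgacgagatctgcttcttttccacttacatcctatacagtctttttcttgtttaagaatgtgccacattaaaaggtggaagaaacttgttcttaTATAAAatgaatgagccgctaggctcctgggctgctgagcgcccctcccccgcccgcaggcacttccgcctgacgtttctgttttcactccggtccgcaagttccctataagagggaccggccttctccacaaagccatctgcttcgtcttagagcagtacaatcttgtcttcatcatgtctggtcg
The Hist1h1d promoter held 1 CCAAT, 1 AAACACA and 3 TATAAA matches, and that of Hist1h4i held 1 TATAAA and neither of the others. The RefSeq start of Hist1h1d lies inside the gene as the count table draws it, which begins at 23553262, so transcripts from an upstream start are counted on the same gene.

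Genes that make, process and carry histone mRNA and protein were compared from lists of related genes, with the 10 CPM filter. Of all 9518 genes 2.56% and 2.53% were called higher and lower for DMSO over vehicle, 0% for BI6727 over DMSO, and 2.34% and 2.96% for BI6727 over vehicle, against which the counts of each list are to be read. Of 22 factors of histone mRNA 19 were tested, and none was called by edgeR in any of the 3 comparisons, with medians of 0.013, 0.0023 and -0.049 for DMSO over vehicle, BI6727 over DMSO and BI6727 over vehicle. Slbp, the stem-loop binding protein, was at 106.3 and 108.7 normalised CPM in vehicle, 112.4 and 123.5 with DMSO, and 109.5 and 115.5 with BI6727 (log2 fold changes 0.13 and 0.07 over vehicle). Npat was at 34.1 and 34.2, 38.9 and 26.3, and 31.2 and 34.1, and Lsm11, a U7 subunit, at 21.5 and 24.0, 24.9 and 28.6, and 23.0 and 21.1. Of 24 histone chaperone and supply genes all were tested and none was called (medians -0.04, 0.02 and -0.03). Nasp, a chaperone of H3 and H4, was at 195.9 and 230.0 in vehicle, 193.2 and 234.9 with DMSO, and 214.5 and 215.8 with BI6727.

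Of 30 S phase genes 28 were tested, and 1 of them, Tk1, was called lower with BI6727 than vehicle, near the share of all genes (2.96%). Tk1, the thymidine kinase of the salvage pathway, was at 124.6 and 127.7 in vehicle, 72.8 and 86.1 with DMSO and 58.4 and 57.1 with BI6727 (log2 fold change -1.13, SE 0.11, edgeR adjusted p = 0.00057). Pcna, the sliding clamp of DNA polymerase, was at 152.2 and 155.5, 175.3 and 203.9, and 183.6 and 173.5, with 0.30 and 0.21 over vehicle, neither called. Mki67, a marker of cycling cells, was at 138.4 and 157.8, 113.0 and 67.0, and 77.3 and 85.4, with -0.72 and -0.86 over vehicle, neither called (adjusted p = 0.056 and 0.030). The medians of the list were 0.03, -0.09 and -0.03. Of 11 replication-independent histone genes 10 were tested, with medians of -0.26, -0.06 and -0.28. H2afy2, which encodes macroH2A2, was the 1 called, at 49.6 and 47.4 in vehicle, 25.8 and 24.8 with DMSO and 23.3 and 23.9 with BI6727 (log2 fold change -1.04, SE 0.12, adjusted p = 0.00098 for BI6727 over vehicle). Both Tk1 and H2afy2 missed the threshold when either library of vehicle or of BI6727 was left out (adjusted p = 0.013 to 0.024). H2afz was at 31.2 and 22.7 in vehicle, 25.6 and 35.4 with DMSO, and 24.5 and 23.4 with BI6727. H3f3b was at 861.2 and 803.8, 774.0 and 889.4, and 826.3 and 824.1, with log2 fold changes of -0.0013 and -0.013 over vehicle.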

How the data were processed

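The authors mapped single-end reads of 50 bases to mm10 with Subjunc (Subread 1.6.4), assigned them to the genes of Gencode M20 by featureCounts, and deposited raw counts per gene for all 6 libraries. The settings for strand and for reads with several positions are not given in the sources used here. Groups and replicate numbers were taken from the sample labels. Totals were 18362378 to 24452153 counts, which sets the precision of low members.

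On these counts, 1 quasi-likelihood fit of all 6 libraries was made with edgeR 4.0.16 (R 4.3.3, TMM scaling, 3 residual degrees of freedom, no covariate), once over genes that reached 10 CPM in over 3 samples, the filter stated in the study's methods, and once over those kept by filterByExpr. The threshold for a call was an adjusted p (Benjamini-Hochberg) under 0.01 with a fold over 2, and every adjusted p printed is over all genes of a fit. DESeq2 1.42.0, other filters and scalings, offsets for gene length and each library left out were tried, and the scripts were tested on simulated data. The members and lists were chosen with earlier results of these data known. An exact permutation test of 2 against 2 libraries cannot go below p = 0.333, so none is printed.

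Named members were those called in either fit, the 2 of highest level per kilobase in each class, those of the largest log2 fold changes in each direction past 10 CPM, and those past 10 CPM without the stem-loop. From the lists, called genes were named, and in addition Slbp, Npat, Lsm11, Nasp, Pcna, Mki67, H2afz and H3f3b, called or not. Transcripts were from Gencode M21, in which all 70 members have the position of the count table, and promoters from RefSeq (GRCm38.p6, 61 of 70 members matched). Same-numbered libraries did not deviate together (r = -0.113, -0.261 and 0.0458 in the 3 pairs of groups), so the numbers were not taken as pairs. Partners of a group differed by more than counting noise (chi-square per degree of freedom 7.46, 82.3 and 6.53), so no library was a copy of another.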

Additional observations from a re-analysis of the deposited data

How the results depend on the processing

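The members called past 10 CPM were few, so a change of 1 gene moves their number. For DMSO over vehicle, 1 member higher became 2 with DESeq2, filterByExpr, a minimum of 10 counts in total, length offsets (with or without the replicate block) and an adjusted p below 0.05, and 0 to 2 with 1 library left out. For BI6727 over vehicle, 1 became 3 with filterByExpr and with 10 counts in total and 0 to 1 with 1 library left out. For BI6727 over DMSO 0 members lower became 0 to 1 with 1 library left out. In the filterByExpr fit, 2 members called for DMSO over vehicle became 5 with DESeq2, 4 with length offsets and 4 with those and the replicate block, and 0 (without vehicle replicate 2) to 8 (without DMSO replicate 1) with 1 library left out. For BI6727 over DMSO 0 became 0 to 1. For BI6727 over vehicle 3 became 5 with DESeq2, 7 with only the 2 groups compared, 5 with length offsets and 1 (without any of the vehicle or BI6727 libraries in turn) to 8 (without DMSO replicate 1; 7 without DMSO replicate 2) with 1 library left out. The share of all genes called in that fit moved too. For DMSO over vehicle it was 5.98%, and 7.03% with DESeq2, 6.92% with length offsets, 6.96% with those and the block, 2.55% without vehicle replicate 2 and 10% without DMSO replicate 1. For BI6727 over vehicle it was 6.22%, and 7.17% with DESeq2, 8.27% with only the 2 groups, 7.22% with length offsets, 2.32% to 2.95% without any 1 vehicle or BI6727 library and 8.33% or 8.34% without either DMSO library. For BI6727 over DMSO it was 0%, and 0.651% or 0.26% without DMSO replicate 1 or 2. Where 1 library is left out its group has a lone sample, which is assumed to vary like the others. The replicate block alone left 1, 0 and 1 members called past 10 CPM, and 2, 0 and 2 in the filterByExpr fit, with length offsets 4, 0 and 4. A block of crossed replicate numbers, an alternative chosen after seeing the data, gave 1, 0 and 1, and 3, 0 and 3.

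Over the members with under 20% shared windows, the log2 ratio of the summed level was -0.69 for BI6727 over DMSO (-0.15 over all) and 0.68 for BI6727 over vehicle (1.21 over all), and without Hist1h2bc the latter was 0.84. Hist1h1c leads the members with under 20% shared windows, at a mean of 32.5 normalised CPM against 2.27 for Hist1h1d, the next. The log2 fold change of Hist1h1c for BI6727 over DMSO was -0.74, and -0.16 without DMSO replicate 2. Of the log2 fold changes of named genes under all alternatives, 634 kept direction and call, 14 gained a call, 23 lost one and 7 turned sign. Npat for DMSO over vehicle was 0.0075 with length offsets (-0.066 without) and -0.38 to 0.20 with 1 library left out. With 1 library left out Hist1h2bc ranged from -0.087 to 0.57, Hist1h2al from -0.22 to 0.53 (-0.0092 without DMSO replicate 1) and Hist1h1b from -0.75 to 0.59 for BI6727 over DMSO, and Hist1h2ae from -0.41 to 0.25 for DMSO over vehicle. The cause was not tested.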

Other observations

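Of the 70 genes, 30 stand in 15 divergent pairs, in which the starts of neighbours on opposite strands lie 172 to 659 bases apart, and 14 of these pairs join an H2A and an H2B gene. In several pairs the partners had unlike counts. Hist1h2ac had 15 and 6 counts in vehicle, 27 and 36 with DMSO and 19 and 27 with BI6727, while Hist1h2bc, 250 bases away, had 88 and 80, 410 and 657, and 596 and 640. Hist2h2ac had 4 and 0 counts in vehicle, 1 and 2 with DMSO and 1 and 1 with BI6727, beside 33 and 29, 40 and 41, and 20 and 62 for Hist2h2be, 238 bases away. Hist1h2ao had 1 and 0, 1 and 0, and 2 and 0, beside 13 and 1, 8 and 26, and 30 and 30 for Hist1h2bq. Hist1h2ae and Hist1h2bg, 175 bases apart, had 14 and 15, 17 and 11, and 9 and 9, and 19 and 13, 30 and 33, and 34 and 52. Both genes of the testis pair, Hist1h2ba and Hist1h2aa, had 0 counts in all 6 libraries. The difference between partners was not tested.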
